A study of Arabidopsis thaliana with 10 samples.

Results

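A set of 141 probe sets of the Arabidopsis thaliana ATH1 array was examined whose signal was low in the first hours after release from an aphidicolin block, higher from 6 h on, and close to level after that. They were chosen from the signals themselves, as 141 of 11316 probe sets with a highest signal of 60 or more (1.25%), out of 22746 on the array without controls. A member had to be higher in each of the 7 arrays from 6 h to 19 h than in each of the 3 arrays from 0 h to 4 h. Its mean log2 signal at 6 h and 8 h had to exceed its mean at 0, 2 and 4 h by at least 0.7, a difference called the step here. The log2 signals from 8 h to 19 h had to span less than 1 unit, and signals under 12 were counted as 12, so that the step of a member with such a signal depends on that floor. Because these values chose the members, the step, the separation of early from later arrays and the levelness are given as descriptions without a test. The same rule turned downward held for 133 probe sets (1.18%).

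The samples came from 1 course of MM2d, a dark-grown Arabidopsis cell suspension line. Early stationary cells, 7 days after subculture, were diluted into fresh medium with 3% sucrose, 0.5 mg/l NAA (an auxin) and 0.05 mg/l kinetin (a cytokinin), and held for 24 h with 4.16 ug/ml aphidicolin at 27 °C and 130 rpm. Aphidicolin inhibits replicative DNA polymerases and so holds cells around the start of S phase. The drug was washed out over a 47 um nylon net and by gentle centrifugation, and the 0 h sample was taken right after the wash. All 10 samples therefore shared the line, the drug treatment and the wash, and differed by the time since release: 0, 2, 4, 6, 8, 10, 12, 14, 16 and 19 h, with 1 array each. No untreated or mock-washed culture was analysed here, so time since the wash and progress through the cell cycle cannot be told apart. The labels name no marker of a suspension cell. Of the markers listed for differentiated tissues, 1 of 7 for leaf mesophyll had a probe set with a gene name, LHCB4.1, with a highest signal of 129.7 at 19 h. None of the listed seed, root, xylem and pollen markers had one in the annotation used.

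As background, cells released from aphidicolin complete S phase, pass through G2 and divide, and most cell cycle genes are expressed in waves that rise and fall with a phase. A gene that changes level and then stays there behaves differently from such a wave. The named members include several whose products work in plastids. In dark-grown suspension cells plastids are small and carry little chlorophyll. Thylakoid proteins, the phytol side chain of chlorophyll and the malate valve that exports reducing power are made or run there in green tissue.

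The arrays had median signals from 35.0 to 43.6, and 23.1% to 26.9% of probe sets lay under 12. The 2 h array had the lowest mean correlation with the other 9 (0.822 over the probe sets considered), and the 0 h array the next lowest (0.890). The remaining 8 lay between 0.912 and 0.938. These arrays are 2 of the 3 that set the early level. The step of a named member is followed by its value without a single array where that differs by more than 1.5 times. In culture samples, fewer cells of a kind and less RNA per cell cannot be told apart.

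The median member stood 0.13 log2 units above its own early mean at 0 h, 0.39 below it at 2 h, 0.31 above it at 4 h and 0.85 above it at 6 h, and then between 0.92 and 0.99 above it from 8 h to 19 h. The median step was 0.86, or 1.82-fold, with single steps from 0.71 to 2.13. Over all probe sets considered the median step was 0.06, with 4.49% at 0.7 or more and 6.44% at -0.7 or less. Of the 141, 45 had a step of 1 or more (1.47% of all considered) and 96 a step under 1. The lowest later signal exceeded the highest early signal by a median of 0.19, and by more than the member's own SD over 8 to 19 h in 66 of 141. In 39 members this gap was under 0.1. Separation of early and later arrays in this direction was met by 7.57% of all probe sets considered, and in the opposite direction by 4.43%. The rule depended on which early arrays were used. Applied without the 0 h array it held for 345 probe sets, without the 2 h array for 76 and without the 4 h array for 488, of which 129, 62 and 139 were among the 141.

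**Figure D1:**
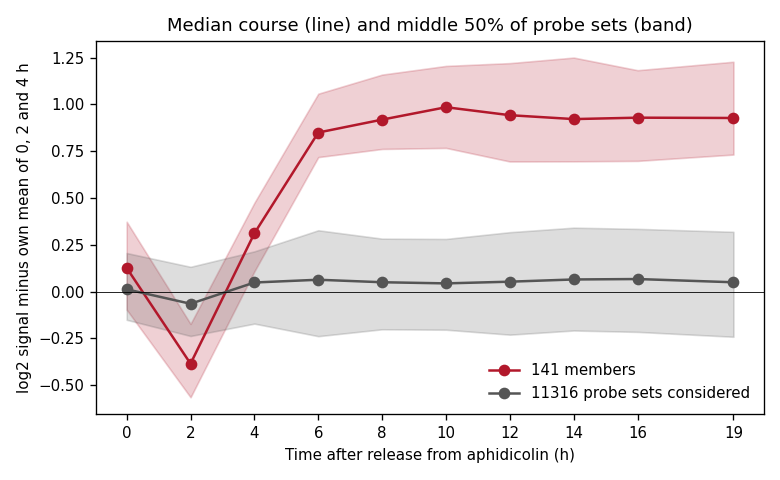
Median log2 signal relative to each probe set's own mean of 0, 2 and 4 h (y axis) against time after release in hours (x axis), for the 141 members (red) and the 11316 probe sets considered (grey), with bands for the middle 50% of probe sets. The members' median is lowest at 2 h (-0.39), is at 0.31 at 4 h and at 0.85 at 6 h, and stays between 0.92 and 0.99 from 8 h on, while the grey line stays near 0.

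The members did not share a single early course, and for many of them the signal was already higher at 4 h than at 2 h. The largest increase between neighbouring times lay between 2 h and 4 h in 85 of 141 members (29.7% of all considered), and between 4 h and 6 h in 48 (12.3% of all considered). In 110 members 2 h was the lowest of the 3 early arrays (42.6% of all considered), and in 109 it was the lowest of all 10 arrays (30.2%). The rule places the lowest array of a member among the 3 early ones. The count of 109 therefore nearly repeats that of 110, and its share over all considered is not a like comparison. By asking for higher signals from 6 h on, the rule also favours a largest increase up to 6 h and a step against any early array. The shares over all considered beside those counts in this paragraph are not like comparisons either. Against the 4 h array alone the median step was 0.58, and 52 members had at least 0.7 (4.65% of all considered). Against 0 h alone the median was 0.79, with 85 members at 0.7 or more (6.06%), and against 2 h alone 1.24, with 139 (14.6%). A step of at least 0.7 against each of the 3 early arrays was seen in 24 members (0.848% of all considered). These 24 were a minority, and not all of them held 1 level early: AT5G02480 stood at 152, 142 and 55.2 at 0, 2 and 4 h. Most of the other members stood low mainly at 2 h or were already partly higher at 4 h.

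Sorted by their early signals, with dividing values chosen after the members were seen, 39 members had a 2 h signal at least 0.7 below both 0 h and 4 h (5.87% of all considered). Their median step was 1.89 against 2 h, and 0.61 and 0.57 against 0 h and 4 h. A further 20 had a step of 0.7 or more against every early array, with a median of 1.18 against 4 h; 4 more with such a step were counted among the 39. In 40 others the 4 h signal had covered at least 50% of the distance between the mean of 0 h and 2 h and the later level, and their median step against 4 h was 0.36. The last 42 fitted none of these descriptions, with medians of 0.66 against 0 h, 1.13 against 2 h and 0.66 against 4 h.

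**Figure D2:**
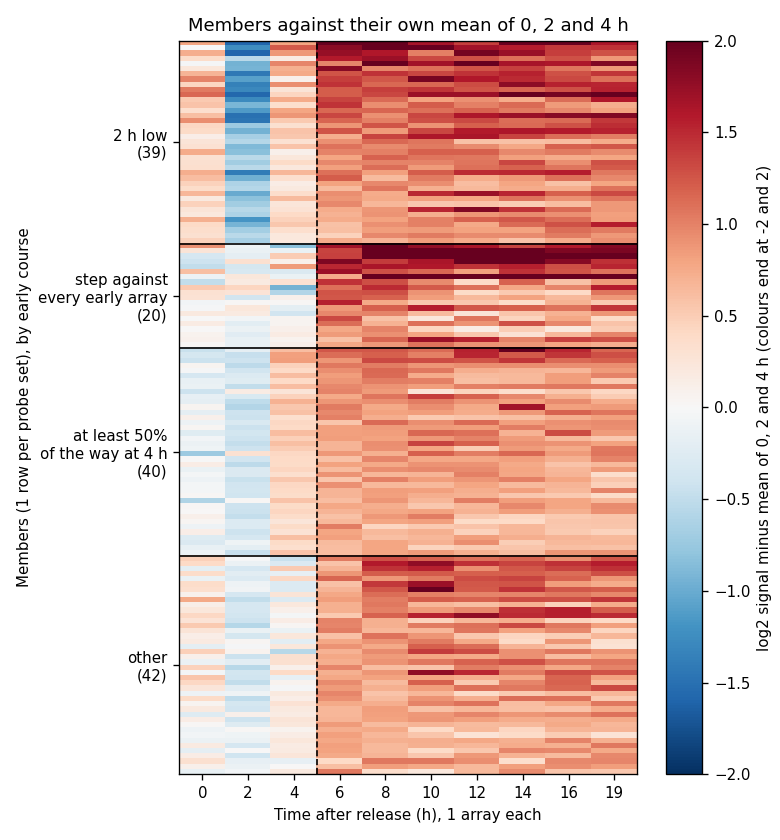
Log2 signal of each of the 141 members (rows) minus its own mean of 0, 2 and 4 h, at each time (columns, 1 array each), with rows grouped by early course and sorted by step within a group. The top group of 39 is blue at 2 h, the group of 40 is light red at 4 h, the other groups are mixed in the early columns, and from 6 h on rows run from pale to dark red.

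Of the 141 members, 73 named 1 gene, each a different gene, 68 had no gene listed and none named several. Among the 73, 9 had a gene symbol and 4 more had a gene name among the synonyms of the gene table. These 13 are described next by role. They are too few to call any function typical of the members.

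Members of chlorophyll and thylakoid biology came first. AT1G74470, listed as geranylgeranyl reductase, the enzyme that reduces the geranylgeranyl chain to the phytyl chain of chlorophyll and tocopherol, had signals of 112, 64.2 and 148 at 0, 2 and 4 h, 169 at 6 h, and 259, 315, 318, 262, 222 and 207 at 8, 10, 12, 14, 16 and 19 h. It was lowest at 2 h, intermediate at 4 h and 6 h, highest at 10 h and 12 h, and then lower again without returning to an early level. Its step was 1.04 and 0.50 against 4 h alone. LIL3:2 belongs to a pair of light-harvesting-like proteins that hold geranylgeranyl reductase at the thylakoid membrane. Its signals were 74.7, 58.0 and 122 at 0, 2 and 4 h, 130.0 at 6 h, and 154, 206, 186, 153, 151 and 141 at 8, 10, 12, 14, 16 and 19 h. The 4 h value lay close to that of 6 h, so the step of 0.81 came mostly from 0 h and 2 h, with 0.21 against 4 h alone. LIL3:1, its partner, was no member because 4 h (82.6) lay above 6 h (77.0). It stood at 41.5 and 34.5 at 0 h and 2 h and between 83.4 and 100.1 from 8 h to 19 h, with a step of 0.73 and -0.02 against 4 h alone.

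ATPC1 encodes the gamma subunit of the chloroplast ATP synthase, the rotor shaft of that enzyme. Its signals were 64.9, 51.3 and 101 at 0, 2 and 4 h, 102 at 6 h, and 140.0, 124, 128, 139.6, 120.0 and 102 at 8, 10, 12, 14, 16 and 19 h, and the values at 4 h, 6 h and 19 h were nearly the same. The later mean was 126 ± 14.1 (SD, 6 arrays) against 72.4 ± 25.8 (SD, 3 arrays) early, with a step of 0.78 and 0.24 against 4 h alone. The other gamma subunit gene, ATPC2, had a step of -0.04 and stood between 63.8 and 97.2 in all 10 arrays. AT1G52220, listed as CURT1C, belongs to the proteins that bend the margins of thylakoid grana. It gave 39.2, 36.1 and 41.7 at 0, 2 and 4 h, 66.4 at 6 h, and 77.6, 52.5, 43.3, 55.0, 44.9 and 55.6 at 8, 10, 12, 14, 16 and 19 h. The 12 h value was only just above the highest early value, and the later mean of 54.8 ± 12.3 (SD, 6 arrays) stood against 39.0 ± 2.84 (SD, 3 arrays) early. The step, taken at 6 h and 8 h where it was highest, was 0.88. A pair of relatives was also above the signal limit: AT4G01150 (CURT1A) had a step of 0.38 with early and later arrays apart, and AT4G38100 (CURT1D) one of 0.15 with overlap.

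AT5G58330, listed as NADP-dependent malate dehydrogenase, reduces oxaloacetate with plastid NADPH and so lets reducing power leave the chloroplast as malate. It stood at 138, 129 and 200.4 at 0, 2 and 4 h, 283 at 6 h, and 311, 308, 231, 238, 272 and 219 at 8, 10, 12, 14, 16 and 19 h. The 4 h value lay between the first times and the later ones, and the step was 0.96, or 0.57 against 4 h. The plastid gene psaA, which encodes a core subunit of photosystem I that binds its reaction centre chlorophylls, had the smallest step of all members, 0.71, and leaving out 6 h or 8 h changed it to 0.36 or 1.05. Its signals of 55.8, 59.8 and 70.9 at 0, 2 and 4 h, 128 at 6 h, and 79.3, 71.6, 97.4, 119, 90.4 and 89.7 at 8, 10, 12, 14, 16 and 19 h were uneven, with the highest at 6 h and the 10 h value within 1 signal unit of that at 4 h. The partner subunit psaB had a step of 0.13, with overlapping early and later signals.

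**Figure D3:**
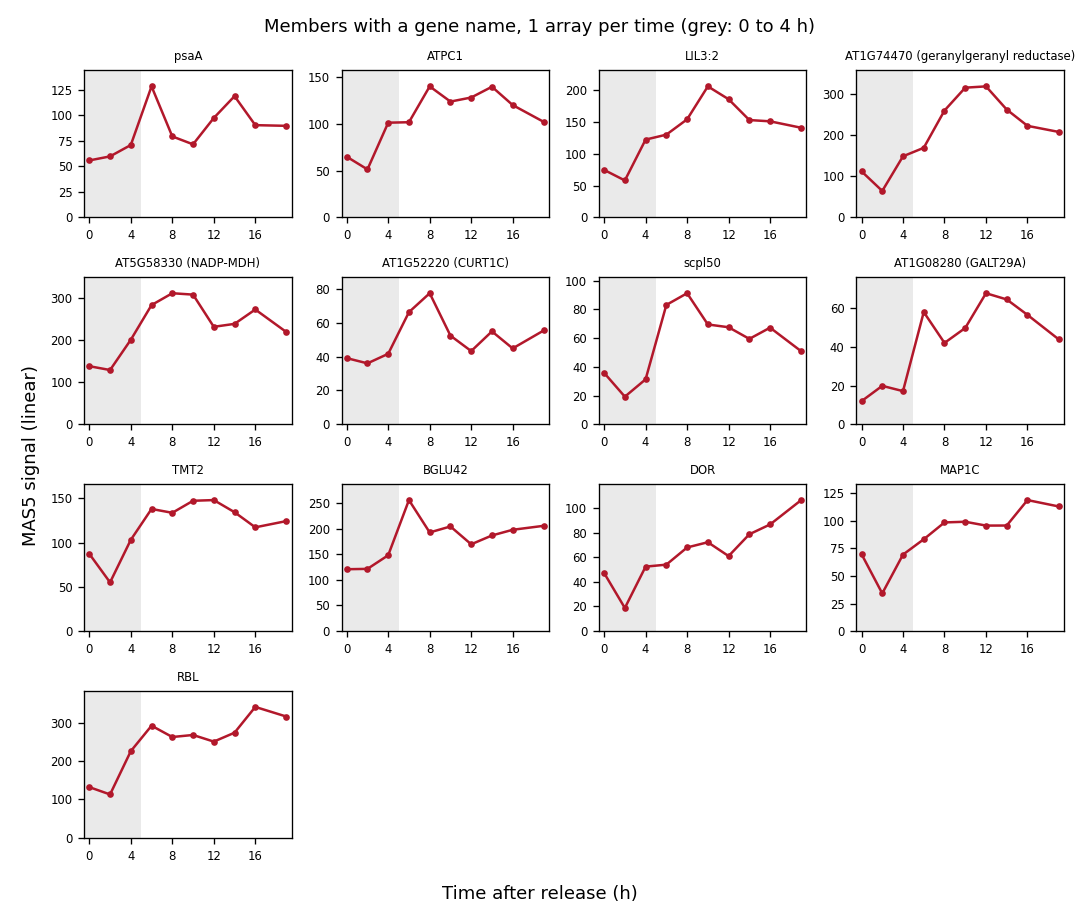
MAS5 signal on a linear scale (y axis, from 0, scaled per panel) against time after release in hours (x axis) for the 13 members with a gene name, 1 array per point, with 0 to 4 h shaded. AT1G74470, LIL3:2, ATPC1, TMT2, DOR, MAP1C and scpl50 dip at 2 h, with smaller dips in RBL, AT5G58330 and AT1G52220. BGLU42, AT1G08280, psaA, AT1G52220 and also scpl50 have their largest increase between 4 h and 6 h, and DOR is highest at 19 h.

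The wider list of light harvesting, photosystem and chloroplast ATP synthase genes held 24 probe sets above the signal limit, of which 2, ATPC1 and psaA, were members. Early and later arrays were apart upward in 4 of 24 and downward in 0 (7.57% and 4.43% of all considered), and the median step was 0.28 against 0.06 over all. The 4 nuclear genes had steps of 0.60 to 0.79, with a median of 0.73 that was 0.24 against 4 h alone. PSBW and PSBY, small photosystem II subunits, met the separation but missed the step limit, and LHCB4.1, a minor antenna protein, met the step but not the separation, since its 4 h signal of 90.1 was above the 6 h signal of 87.9. The 20 plastid-encoded genes had steps from -0.74 to 0.71, with 13 above 0 (6359 of all 11316 considered) and a median of 0.13. Nuclear and plastid genes were separated after their values were seen, and their difference was not tested. The 4 genes of chlorophyll and haem synthesis above the limit had a median step of -0.28 and no member. The list was matched by symbol and did not take in AT1G74470, described above. It was also counted without the 5 genes kept out of the set by name, which include a gene of this list. Of the 4 only CHLM, which methylates magnesium protoporphyrin, had a step above 0 (0.45).

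**Figure D4:**
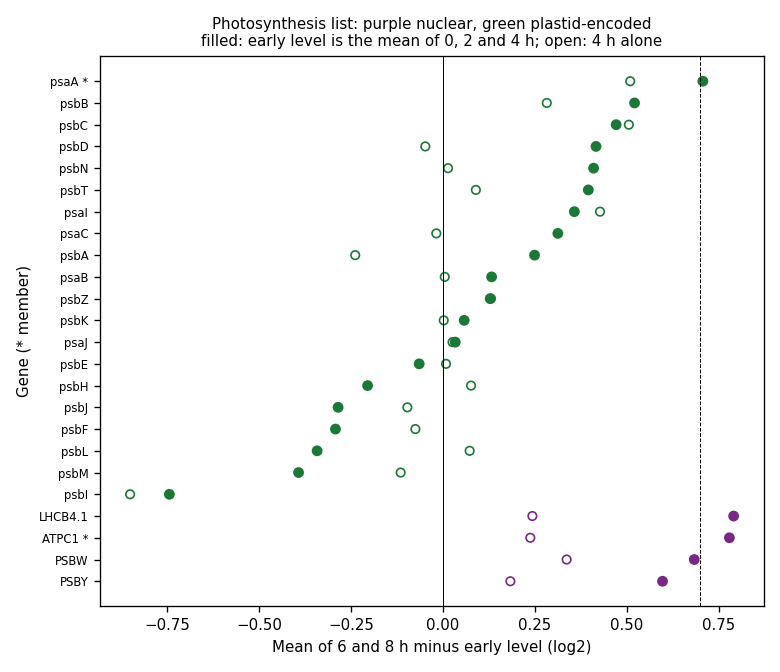
Step in log2 units (x axis) for the 24 genes of the photosynthesis list above the signal limit (y axis, members marked *), nuclear in purple and plastid-encoded in green, against the mean of 0, 2 and 4 h (filled) and against 4 h alone (open). The 4 nuclear genes lie between 0.60 and 0.79 when filled and lower when open, and the 20 plastid genes spread from -0.74 to 0.71.

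Among enzymes of sugars, walls and secreted proteins, AT1G08280 (GALT29A) is a Golgi galactosyltransferase that extends the side chains of arabinogalactan proteins. It gave 11.9, 19.9 and 17.2 at 0, 2 and 4 h, 58.1 at 6 h, and 42.1, 49.9, 67.9, 64.7, 56.7 and 44.0 at 8, 10, 12, 14, 16 and 19 h. All early signals were near the floor of 12 and 0 h was below it, and all later ones were clear of them. The step was 1.63 (0.99 with a floor of 25), and 1.53 against 4 h alone. scpl50, a serine carboxypeptidase-like protein, stood at 35.8, 19.2 and 31.3 at 0, 2 and 4 h, 83.1 at 6 h, and 91.2, 69.5, 67.5, 59.4, 67.2 and 50.8 at 8, 10, 12, 14, 16 and 19 h. Its 2 h signal lay 0.70 log2 units below the lower of 0 h and 4 h, and its largest increase lay between 4 h and 6 h. It was highest at 8 h and lowest of the later times at 19 h. The later mean was 67.6 ± 13.5 (SD, 6 arrays) against 28.7 ± 8.58 (SD, 3 arrays) early. Of 8 genes named as serine carboxypeptidase-like above the limit, scpl50 was the only member. It was also the only one with early and later arrays apart upward (7.57% of all considered). The steps of the 8 ran from -0.40 (scpl46) to 1.65, with 7 above 0 (6359 of all 11316 considered).

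TMT2, a tonoplast carrier that loads glucose and other sugars into the vacuole, had signals of 87.2, 55.0 and 103 at 0, 2 and 4 h, 138 at 6 h, and 134, 147, 148, 134, 117 and 124 at 8, 10, 12, 14, 16 and 19 h. Its later values formed a narrow band, 134 ± 12.2 (SD, 6 arrays), above all early ones, 81.8 ± 24.5 (SD, 3 arrays), and its step was 0.78, or 0.52 without the 2 h array. TMT3, of the same family, had a step of -0.25. BGLU42, a beta-glucosidase, was level at first and highest at 6 h, with 121, 121 and 148 at 0, 2 and 4 h, 256 at 6 h, and 193, 204, 169, 187, 198 and 206 at 8, 10, 12, 14, 16 and 19 h. Its step was 0.78 (0.58 against 4 h alone). The 6 other beta-glucosidase genes above the limit ran differently, with steps from -1.87 (BGLU27) to 0.22 (BGLU15), and BGLU27 and BGLU31 had their highest signals, 565 and 498, at 2 h.

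The remaining 3 named genes act on proteins or in the nucleus. DOR, an F-box protein known as a repressor of drought tolerance in guard cells, stood at 47.2, 18.8 and 52.4 at 0, 2 and 4 h, 54.0 at 6 h, and 67.9, 72.2, 60.9, 78.7, 86.6 and 106 at 8, 10, 12, 14, 16 and 19 h. It was low at 2 h alone, nearly equal at 4 h and 6 h, and went on to its highest value at 19 h, and its step of 0.75 was 0.28 without the 2 h array and 0.21 against 4 h. MAP1C, listed also as MAP1B, is a methionine aminopeptidase, which removes the first methionine of new proteins. It gave 69.9, 34.2 and 69.4 at 0, 2 and 4 h, 83.3 at 6 h, and 98.6, 99.2, 95.8, 95.8, 119 and 113 at 8, 10, 12, 14, 16 and 19 h, with nearly equal values at 0 h and 4 h and a low one at 2 h, and a step of 0.72 that was 0.38 without the 2 h array and 0.39 against 4 h alone. MAP1A and MAP1D had steps of 0.35 and 0.14. RBL (REBELOTE), known from the control of floral meristem growth, had 132, 113 and 226 at 0, 2 and 4 h, 292 at 6 h, and 262, 268, 251, 274, 341 and 316 at 8, 10, 12, 14, 16 and 19 h. It stood between the first and later levels at 4 h and was highest at 16 h, with a step of 0.88 and 0.29 against 4 h.

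The next members were identified by locus code only, among them the member with the widest separation of early and later arrays. AT5G14230 had 15.6, 5.70 and 2.66 at 0, 2 and 4 h, 33.5 at 6 h, and 58.9, 62.9, 51.9, 55.8, 47.9 and 48.5 at 8, 10, 12, 14, 16 and 19 h. Its 2 h and 4 h signals were under 12, and its step of 1.76 became 0.83 with a floor of 25. The distance between its highest early and lowest later signal, at 0 h and 6 h, was the widest of all members. AT3G03130 was near the floor at all early times and stood at 12.4, 15.7 and 12.3 at 0, 2 and 4 h, 22.4 at 6 h, and 54.5, 99.9, 90.4, 91.2, 65.3 and 61.7 at 8, 10, 12, 14, 16 and 19 h. At 6 h it was -1.75 from its mean over 8 to 19 h, the farthest below among members with a gene. Its step of 1.38 was 0.74 without the 8 h array and 0.56 with a floor of 25, which is under the limit of 0.7. AT5G14610 was the flattest of these members from 8 h on, with 168, 112 and 117 at 0, 2 and 4 h, 239.9 at 6 h, and 301, 307, 298, 298, 283 and 318 at 8, 10, 12, 14, 16 and 19 h and an SD of 0.05 log2 units over the last 6 arrays.

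The largest step of a member with 1 gene belonged to AT1G64450, 1.93 with the 2 h signal counted as 12 and 1.31 without the 2 h array, with signals of 28.5, 4.01 and 66.4 at 0, 2 and 4 h, 98.7 at 6 h, and 118, 118, 91.2, 84.4, 75.2 and 77.5 at 8, 10, 12, 14, 16 and 19 h. Its 2 h signal was under the floor and its 4 h signal lay not far below its lowest later one, and the step against 4 h was 0.70. AT4G38660 had the same form, with 2.22 and 65.8 at 2 h and 4 h and 122 at 6 h, and a step of 1.68 that was 0.88 without the 2 h array and 0.82 against 4 h. In all, 10 members had an early array under 12, which was the 2 h array in 9. AT4G36180, AT2G01630, AT3G53190 and AT2G41890 also had a 2 h signal at least 0.7 below both 0 h and 4 h. The step of AT4G36180 was 1.35, or 0.64 without the 2 h array, and that of AT2G41890 1.19, or 0.73 without it. AT2G01630 had 100.1, 28.9 and 141 at 0, 2 and 4 h, 202 at 6 h, and 165, 165, 183, 256, 215 and 214 at 8, 10, 12, 14, 16 and 19 h, and AT3G53190 395, 78.4 and 231 at 0, 2 and 4 h, 448 at 6 h, and 501, 516, 460.4, 431, 466 and 559.8 at 8, 10, 12, 14, 16 and 19 h. Without the 2 h array the steps of these last 2 were 0.62 and 0.65.

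The opposite case, a lowest value at 4 h, was seen in 13 members (27.8% of all considered). AT5G02480 stood at 152, 142 and 55.2 at 0, 2 and 4 h, 228 at 6 h, and 298, 248, 227, 182, 209 and 314 at 8, 10, 12, 14, 16 and 19 h, a step of 1.29 that was 2.24 against 4 h alone and 0.82 without the 4 h array. AT5G07570 was similar at first, with 121, 119 and 65.6 at 0, 2 and 4 h and 235 at 6 h, and was at 127 at 12 h, just above its 0 h signal. AT1G78060 had 71.9, 50.8 and 38.1 at 0, 2 and 4 h and between 98.3 and 126 later, with a step of 1.16. AT5G15280 and AT1G51080 were instead already higher at 4 h (29.7 and 42.8) than at 0 h (14.1 and 19.0), with steps of 1.24 and 1.15. With a floor of 25 these 2 steps were 0.79 and 0.86.

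**Figure D5:**
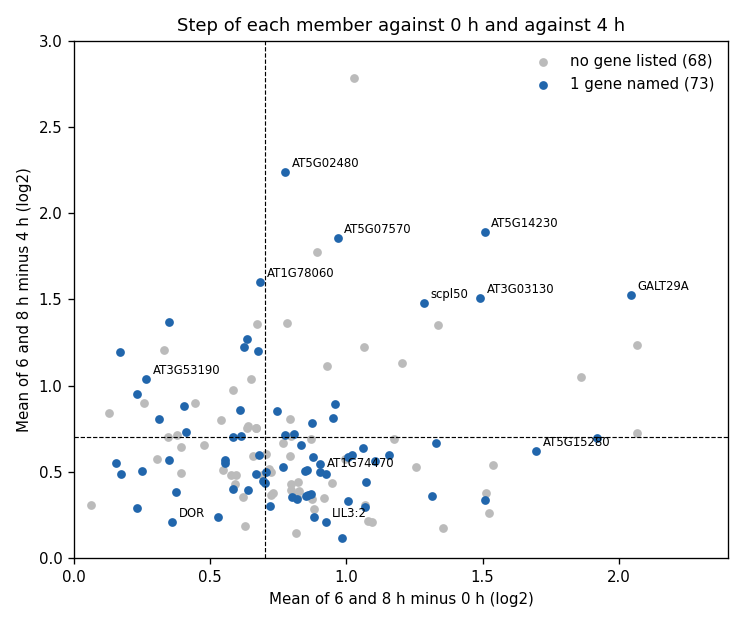
Mean log2 signal of 6 h and 8 h minus that of 4 h (y axis) against the same minus 0 h (x axis), 1 point per member, blue for the 73 with a gene and grey for the 68 without, with dashed lines at 0.7. AT5G14230, AT3G03130, scpl50 and GALT29A (AT1G08280) lie above both lines, while LIL3:2 and DOR lie low on the y axis at 0.21.

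Members with high signals included AT5G20160, with 1354, 1316 and 1909 at 0, 2 and 4 h, 2312 at 6 h, and 2613, 2044, 2156, 2209, 2289.9 and 2262 at 8, 10, 12, 14, 16 and 19 h and a step of 0.71. AT3G12390 was highest at 6 h (869.6) after 464, 324 and 547 at 0, 2 and 4 h, and stayed between 627 and 763 from 8 h on. AT4G01310 stood at 371, 175 and 298 at 0, 2 and 4 h and between 403 and 521 from 6 h on, with a step of 0.88, or 0.57 without the 2 h array. AT2G05920 was at 399, 125 and 319.7 at 0, 2 and 4 h, 478 at 6 h and 835 at 12 h, and its 8 h signal of 422 was the lowest of the later ones. Its step of 0.84 was 0.33 without the 2 h array.

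After 6 h the members spread in both directions. The 6 h signal lay within the range of the 8 to 19 h signals in 78 members (56.4% of all considered), below all of them in 42 (22.1%) and above all of them in 21 (21.6%), and the median distance from the mean of 8 to 19 h was -0.06. The mean of 14, 16 and 19 h was above that of 8, 10 and 12 h in 63 of 141 (51.7% of all considered), with a median difference of -0.02. It was beyond 0.35 upward in 6 (6.74%) and downward in 7 (5.89%), a difference that the limit on the later range holds down. The SD over 8 to 19 h had a median of 0.18 log2 units, the same as for all probe sets considered (0.18). AT5G40150 had the largest later increase, from 123 at 8 h to 236 at 19 h (difference of window means 0.51). AT5G05510, AT1G22440 and AT4G33400 were highest at 10 h with 94.9, 128 and 299.8, and stood at 50.8, 65.7 and 162 at 19 h. These differences lie inside the limit of 1 that the rule set.

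Genes of G2 and mitosis were among those that the limit on the later range left out. Of 12 on the list above the signal limit, 5 (AUR1, 3xHMG-box1, 3xHMG-box2, BUB3.1 and KINESIN-12B) had early and later arrays apart upward and 0 downward (7.57% and 4.43% of all considered). All 5 also had a step of at least 0.7, which together with the separation held for 191 of all 11316 considered. Of the 12, 0 were members (141 of all 11316 considered). In 11 of the 12 the range over 8 to 19 h was 1 or more. Over all probe sets considered this range had a median of 0.47 and an upper quartile of 0.69. The share of all considered with a range of 1 or more was not counted, so the 11 of 12 cannot be set beside it. AUR1, a mitotic Aurora kinase, had signals of 75.7, 128, 551 and 202 at 4, 6, 10 and 19 h. 3xHMG-box1, a protein of mitotic chromosomes, was under the floor at 4 h and stood at 28.9, 117 and 45.3 at the same later times. Of the 8 genes of DNA replication and core histones, 0 were apart upward and 4 (the histone genes HTB2, HTB4, HTB11 and HTR12) downward (7.57% and 4.43% of all considered), with a median step of -0.32.

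The other lists held no member, and the genes named from them here were chosen after their values were seen. Over all probe sets considered, 7.57% were apart upward and 4.43% downward, against which the counts of this paragraph are to be read. The 5 genes kept out by name are not counted in any list. They include genes of the Calvin cycle and respiratory chain lists. Rubisco activase (RCA), of the Calvin cycle list, met all other criteria of the rule. Of 31 cell wall genes above the limit 1 (GH9C2) was apart upward and 0 downward, with a median step of 0.08. Of 38 genes on the list of stress, redox and detoxification 1 (COS1) was apart upward and 3 (CYP71B5, COR47 and GSTU25) downward, with a median of 0.05. Of 31 transcription factors named by family 2 (AGL26 and PHV) were apart upward and 1 (bHLH121) downward, with a median of -0.02. Of 11 genes of the respiratory chain and related dehydrogenases none was apart in either direction (0.06). Of the 3 genes for plastid ribosomes and plastid gene expression, Cpn60beta2, a plastid chaperonin subunit, was apart upward with 402, 399.6 and 607 at 0, 2 and 4 h and 647 at 6 h, and a step of 0.47. Lipid metabolism had 3 genes above the limit, with 0 apart upward and 1 (AIM1) downward. Nitrogen metabolism (5 genes), Calvin cycle and photorespiration (2), auxin and cytokinin response (2), sugar starvation (1) and light signalling and clock (1) had 0 in either direction, and these are too few to describe a pathway.

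At the limit of 0.7 the members with the smallest steps among those with a gene were psaA (0.71), AT5G20160 (0.71) and AT2G03780 (0.71, and 0.38 without the 2 h array). Just outside, meeting every other criterion, were AT2G45100 (0.69), AT3G06530 (0.69) and PSBW (0.68). PSBW had 80.3, 76.9 and 113 at 0, 2 and 4 h and between 126 and 151 from 6 h on. Before the limit on range, 191 probe sets met the separation and the step, and 50 of these were lost to the range. Rubisco activase (RCA) was 1 of 5 genes kept out by name, and the only 1 of them that met all other criteria.

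Some features outside the rule were looked at. Of the genes with members, 72 lay on the nuclear chromosomes, where they made up from 0.883% (chromosome 3) to 1.62% (chromosome 2) of the genes considered, and 1.19% over all 5. Only AT5G14580 and AT5G14610, 4 genes apart on chromosome 5, lay within 10 genes of each other, so 2.78% of member genes had another member that near, against 4.29% of the other genes considered. A single member gene, AT1G79150, was measured by a second probe set. The member probe set had 65.3, 62.4 and 119 at 0, 2 and 4 h, 139 at 6 h, and 119.7, 125, 140.3, 129.5, 126 and 124 at 8, 10, 12, 14, 16 and 19 h, a step of 0.72. The second had a step of 0.42, and 0.01 against 4 h alone, with signals of 207, 173 and 289.6 at 0, 2 and 4 h and 292 at 6 h, and stood at 292, 336, 335, 356, 389 and 367 at 8, 10, 12, 14, 16 and 19 h. It was thus level from 4 h to 8 h and higher from 10 h on.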

How the data were processed

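Total RNA labelled with biotin was hybridised to 1 ATH1 array per time. The deposited values are MAS5 signals per the submitters' processing notes, that is, 1 linear intensity for each probe set. The MAS5 version and the scaling target were not given in the sources used here. The intensity values deposited by the authors were used without rescaling, after 64 control probe sets of 22810 were left out. MAS5 gives noisy low values, so signals under 12 were set to 12 before log2, and a step with a floored value depends on that floor.

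Genes came from the platform annotation, with symbols from a RefSeq gene table (TAIR10.1) used for names and neighbours only. Of 22746 probe sets, 13513 named 1 gene (13436 matched the table), 503 several and 8730 none. Gene lists were matched by symbol or synonym, which can take in an unrelated gene of the same name.

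The members and lists were chosen with earlier results of these data known. With 1 array per time and a rule that used all arrays, no test was made and no p-value is given. An SD is over arrays of different times, which are not replicates. The named genes were, among members with 1 gene, the 15 largest steps, the 5 highest signals from 8 h on, those with a symbol, list members and those nearest the step limit. The 4 genes named from synonyms, the families, the extremes and the early classes were added after values were seen. Python 3.11.15, numpy 2.4.6 and pandas 2.3.3 were used. Alternatives covered the floor, scaling, rule limits and arrays left out. Motif searches in promoters were planned and not run, as no sequence table was used.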

Additional observations from a re-analysis of the deposited data

How the results depend on the processing

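The precision is limited by 1 array per time and by low signals. The median step of 0.86, whose sign the rule fixes, was 0.58 without the 0 h and 2 h arrays, and leaving out 1 array gave 0.67 (without 2 h) to 0.99 (without 4 h). Centring each array on its median over all probe sets gave 0.76. This removes a difference of 0.10 between the array medians of 6 and 8 h and those of 0 to 4 h. Over the probe sets considered, the median step was 0.06 before centring and -0.04 after it. The rule held for 141 probe sets, and leaving out 1 array gave 76 (without 2 h) to 488 (without 4 h). It was 272 without 0 h and 2 h, 52 of them among the 141, and 459 without 2 h and 4 h, a setting chosen after seeing the data, with 85 among the 141. A pseudocount of 16 in place of the floor gave 87 and median centring 63, with 84 and 62 among the 141. Limits on the step of 1 and 0.5 gave 45 and 352, and a highest signal of at least 120 gave 91. Leaving out an array loosens the separation, and a changed limit loosens or tightens the rule, by construction. The lower count without the 2 h array is not of that kind. There the median step of the 141 was 0.67, under the limit of 0.7, and 62 of the 76 were among the 141. For the other settings the cause was not tested. Of the 372 steps of the 31 named members under alternatives, 104 moved by more than the member's own SD over 8 to 19 h. The median distance of 6 h from the later mean ran from -0.10 to -0.0064 and the median later difference from -0.067 to -0.0030 over the alternatives run. No paired analysis was possible because each time had 1 sample and the times share only the replicate number 1.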

Other observations

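The 68 members with no gene listed included the largest step of all, 2.13 with a 2 h signal counted as 12. The signals of that probe set were 62.3, 1.57 and 61.8 at 0, 2 and 4 h, 169.6 at 6 h and between 93.9 and 146 from 8 h on, and the steps against 0 h alone and 4 h alone were 1.34 and 1.35. The 2 h value was far below both of its neighbours.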
